A study of Mus musculus with 4 samples.

Results

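The comparison set the brains of C57BL/6 (B6) and of the hybrid written C57BL/6 x CAST/EiJ (F1i), in which C57BL/6 is named first, against those of CAST/EiJ (CAST) and of the hybrid written CAST/EiJ x C57BL/6 (F1r), in which CAST/EiJ is named first. The labels do not say which parent was the dam. Its members were the 8853 genes with a mean of at least 5 FPKM over the 4 libraries on chromosomes 1 to 19, of 45215 genes with a transcript of 200 bases or more. FPKM is a fragment number scaled by transcript length and by library size, and was summed over the transcripts of a gene. C57BL/6 is a standard inbred laboratory mouse and CAST/EiJ an inbred strain derived from wild Mus musculus castaneus. All mice were wild type. Every group had 1 library, made from a pool of the left hemispheres of 5 animals, although the design text speaks of whole brain. The sources used here give neither the age nor the sex of the mice. No group has a replicate, and the 2 libraries of a side differ in genotype, so they are not replicates of each other either.

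Reciprocal F1 hybrids carry the same autosomal alleles and differ in which parent gave each allele, in their mitochondrial DNA and, in males, in their sex chromosomes. Imprinted genes, which are read from the copy of 1 parent, are the textbook case of autosomal genes that follow the direction of a cross. RNA from whole tissue also follows the cells that were sampled and the state of the RNA. Myelin genes mark oligodendrocytes, globin RNA marks red blood cells, and RNAs such as Malat1 and transcripts that keep an intron are held in the nucleus rather than the cytoplasm. In bulk tissue, fewer cells of a type and less RNA per cell cannot be told apart.

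A gene was called when the lower library of one side lay at least 25% above the higher library of the other, on the scale of FPKM + 1. This ratio is the gap, and it understates the difference of genes with low values. Of the 8853 genes, 29 (0.328%) were called higher in B6 and F1i and 69 (0.779%) higher in CAST and F1r. Genes called higher in B6 and F1i included the beta globin Hbb-bs, the myelin gene Mag and the Notch target Hes5. Those called higher in CAST and F1r included the nuclear RNA Malat1, the splicing-related genes Pnisr, Srrm2 and Nktr, and the long genes Reln, Nav2 and Lyst. With any gap above 0 the counts were 1755 (19.8%) and 2774 (31.3%). The counts depended on the scale: after median-ratio scaling 46 genes were called higher in B6 and F1i and 52 in CAST and F1r. After rescaling to the same total over all transcripts they were 3 and 1891, and after rescaling over the genes compared 7 and 409. That first rescaling moved the median difference of all genes from -0.03 to -0.32 on the log2 scale. Of the total it used, 64.9% to 69.7% lay in transcripts under 200 bases, which the gene sums leave out. In B6, the small RNA Rn7sk alone held 233564 of the 656333 FPKM of the genes compared. The median-ratio size factors ran only from 0.988 to 1.01.

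limma, fitted across all 8853 genes with a term for hybrid or inbred, called 0 genes (0%) at an adjusted p below 0.05, and 371 genes (4.19%) had an unadjusted p below 0.05. Of these 371 genes, 118 were higher in B6 and F1i and 253 in CAST and F1r. The smallest adjusted p from limma was 0.666. The only residual of that fit is the disagreement between the inbred pair and the hybrid pair, which is not a spread between replicates.

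The 4 libraries differed in measures that moved with the sides. The sum of FPKM over all transcripts was 2357190 in B6, 2347990 in F1i, 1857430 in CAST and 1942710 in F1r, a gap of 1.21-fold. Protein-coding genes among those compared differed less, at 264440, 257802, 251188 and 256777 FPKM in the same order. With B6 set to 1, depth estimated from the value of 1 fragment came to 0.785 for F1i, 0.703 for CAST and 0.717 for F1r. Absolute depth cannot be had from FPKM, and counting intervals are left out. The tissue label was met by the brain markers, with 14 of 15 pan-neuronal and 14 of 15 astrocyte markers among the genes compared. In the muscle and the pituitary and pineal lists 0 members reached the mean of 5 FPKM. Below that filter, the pituitary and pineal list summed to 2.95 FPKM in B6, 4.48 in F1i, 9.54 in CAST and 7.55 in F1r. Its member Gh was at 0, 0.152, 3.28 and 3.29 FPKM, while Tshb lay the other way at 0.0950, 0.118, 0.00795 and 0.00781. Muscle genes summed to 24.8, 10.7, 10.1 and 9.41 FPKM, highest in B6. Of 19 olfactory and respiratory mucosa markers 4 were compared, and Scgb1c1, a secretoglobin, was at 11.1 FPKM in B6, 0.828 in F1i, 21.9 in CAST and 2.34 in F1r, higher in both inbred libraries than in both hybrids. The part of these measures in the results below was not tested.

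The promoters of 3 called genes are shown, as examples of a blood gene, a Notch target and a nuclear RNA. They run from 250 bases before to 50 bases after the RefSeq start of the gene, on GRCm38.p6. For Hbb-bs this start lies inside the gene span given below, downstream of its first base. Capitals mark matches, on either strand, to CCAAT (the CCAAT box), CCACACCC (a CACC element as in globin promoters) or GTGGGAA (a site of the Notch factor Rbpj); TATAAA was searched as well.

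Hbb-bs, chr7:103827879-103828178, minus strand: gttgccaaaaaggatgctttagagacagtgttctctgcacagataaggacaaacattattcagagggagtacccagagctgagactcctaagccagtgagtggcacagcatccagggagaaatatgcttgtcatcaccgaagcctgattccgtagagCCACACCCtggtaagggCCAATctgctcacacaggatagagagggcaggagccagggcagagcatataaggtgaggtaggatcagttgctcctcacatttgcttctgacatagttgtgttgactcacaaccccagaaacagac

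Hes5, chr4:154960673-154960972, plus strand: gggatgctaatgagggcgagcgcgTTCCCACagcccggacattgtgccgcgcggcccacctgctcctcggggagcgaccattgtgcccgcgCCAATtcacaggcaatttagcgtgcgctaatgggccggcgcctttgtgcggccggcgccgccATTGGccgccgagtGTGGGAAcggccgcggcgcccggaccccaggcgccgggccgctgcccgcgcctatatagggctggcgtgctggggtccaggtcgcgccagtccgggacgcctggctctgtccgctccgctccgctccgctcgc

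Malat1, chr19:5802623-5802922, minus strand: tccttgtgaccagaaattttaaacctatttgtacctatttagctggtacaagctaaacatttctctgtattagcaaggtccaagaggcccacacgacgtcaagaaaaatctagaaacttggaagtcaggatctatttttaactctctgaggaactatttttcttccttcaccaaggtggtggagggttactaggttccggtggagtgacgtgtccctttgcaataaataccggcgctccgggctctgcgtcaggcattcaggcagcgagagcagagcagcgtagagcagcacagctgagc

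The Hbb-bs window held 1 CCAAT and 1 CCACACCC. The Hes5 window held CCAAT and GTGGGAA on both strands, 4 matches in all, and was 72.7% G and C. The Malat1 window held none of the 4 motifs. Of 32851 RefSeq promoter windows of this length, 37.4% held CCAAT, 3.56% CCACACCC, 6.38% GTGGGAA and 13.6% TATAAA. A match is a description of the letters only.

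The widest gaps toward B6 and F1i among annotated protein-coding genes were those of the globin genes Hba-a2 and Hbb-bs. Hbb-bs, an adult beta globin (chromosome 7, 103826534 to 103828096, in GRCm38 as are all positions here), stood at 288 FPKM in B6, 287 in F1i, 181 in CAST and 184 in F1r. The libraries of each side lay close together, with a gap of 1.56-fold between the sides. Its neighbour Hbb-bt was at 48.7, 34.2, 17 and 26.6 FPKM in the order B6, F1i, CAST and F1r, and here B6 stood highest and CAST lowest. The gap of Hbb-bt was 1.27-fold.

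Of the alpha globins, Hba-a2 stood at 66.5 FPKM in B6, 37.2 in F1i, 0.103 in CAST and 18.2 in F1r. Its copy Hba-a1 was at 107, 143, 137 and 88.7 FPKM and was not called, since CAST lay between F1i and B6. Hba-a2 shares 92.6% of its 31-base words with other genes, Hbb-bs 54.4% and Hbb-bt 59.4%, so the split of fragments within a family is uncertain and the family sums are given too. FPKM times length in kilobases, which is proportional to fragments, summed to 215, 205, 126 and 135 over both beta globin genes. The same sum over both alpha globin genes was 108, 120, 95.5 and 72.1. In both families B6 and F1i lay above CAST and F1r, with B6 to CAST ratios of 1.71 and 1.13 and F1i to F1r ratios of 1.52 and 1.67 for beta and alpha. Of the 5 blood cell markers compared, 3, all globins, were called toward B6 and F1i, against 0.328% of all genes. The list median was 0.67 in the inbred pair and 0.64 in the hybrid pair, beside -0.03 and -0.03 over all genes. With genes at a mean of 1 FPKM or more, 7 markers were compared and the median over both pairs was 0.16 instead of 0.65. The neutrophil genes S100a8 (2.77, 1.80, 2.83 and 5.59 FPKM) and S100a9 (3.01, 2.76, 3.85 and 6.80 FPKM) were higher in CAST and F1r.

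**Figure D1:**
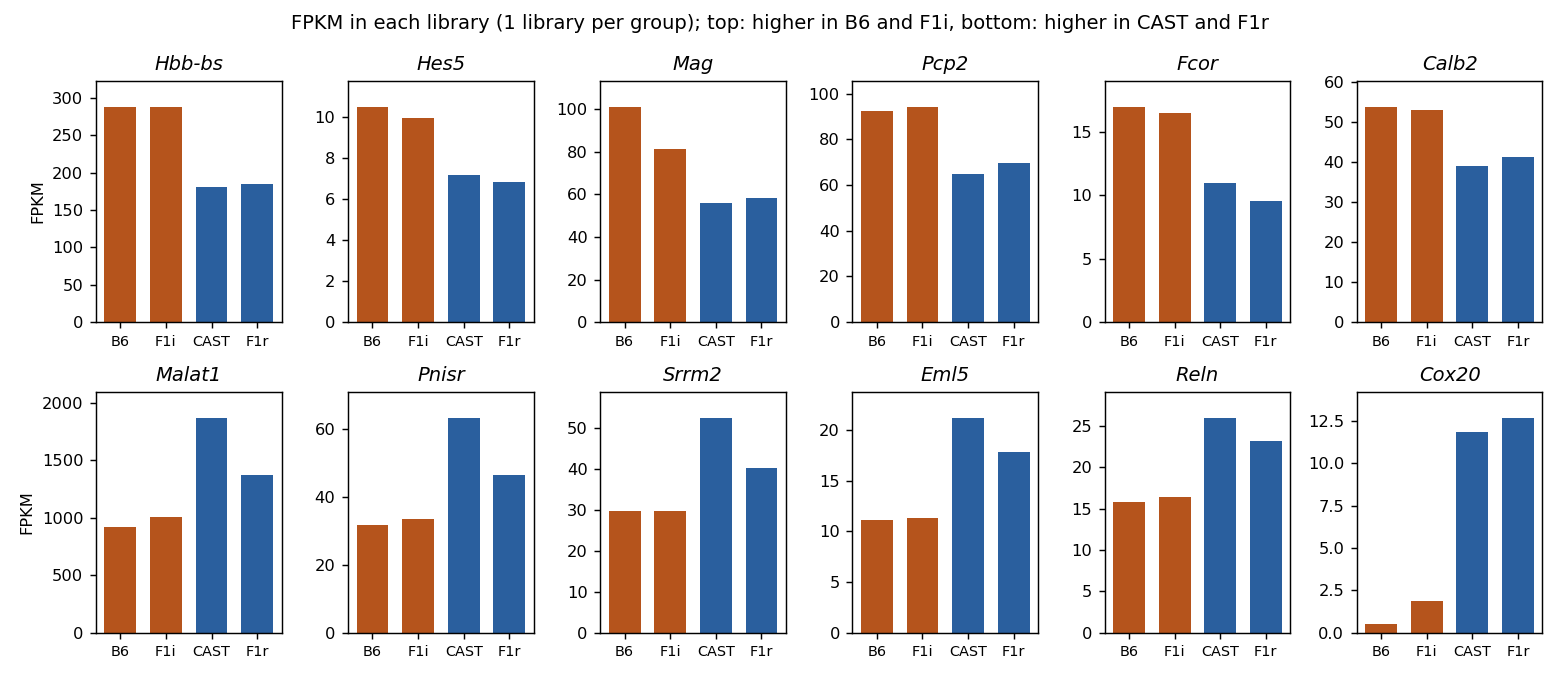
FPKM (y axis, from 0, linear) of 12 genes in the 4 libraries, 1 bar per library, with B6 and F1i in orange and CAST and F1r in blue; there are no error bars because each group is 1 library. All 12 genes were called, so the order of the sides is by construction. In each upper panel both orange bars stand above both blue bars, as for Hbb-bs at 288 and 287 against 181 and 184. In each lower panel the order is turned, as for Reln at 15.8 and 16.4 against 26.0 and 23.2.

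Myelin genes included 2 called toward B6 and F1i. Mag (chromosome 7, 30899176 to 30914873), a myelin-associated adhesion protein of oligodendrocytes, reached 101 FPKM in B6, 81.5 in F1i, 55.8 in CAST and 58.5 in F1r. Its gap was 1.39-fold. Trf, the iron carrier transferrin, which oligodendrocytes make in the brain, was at 206, 134, 59.4 and 106 FPKM with 63.8% of its words found elsewhere. The gap of Trf was 1.26-fold.

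Of the 12 myelin markers compared, 2 were called toward B6 and F1i and 0 toward the other side, and 10 lay apart toward B6 and F1i by any gap. The shares of all genes compared were 0.328%, 0.779% and 19.8%. The list median was 0.74 in the inbred pair and 0.14 in the hybrid pair. The 15 myelin genes summed to 2480 FPKM in B6, 2012 in F1i, 1434 in CAST and 1828 in F1r. Most of the distance was therefore between the inbred strains, with both hybrids between them. Mobp, another basic protein of myelin, was at 280, 175, 102 and 176 FPKM, and F1i was not above F1r. Rescaling to the same total over all transcripts shifts all genes of a library alike. With it the myelin median was 0.41 in the inbred and -0.12 in the hybrid pair. Over both pairs it was 0.20, against -0.32 for all genes.

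Microglial markers, which mark the immune cells of the brain, gave 0 called genes in either direction, while 9 of 11 lay apart toward B6 and F1i by any gap. Among all genes compared, 19.8% lay apart toward B6 and F1i by any gap. The called shares of all genes were 0.328% toward B6 and F1i and 0.779% toward CAST and F1r. C1qa, a chain of the complement component C1q, was at 35.7 FPKM in B6, 27.3 in F1i, 19.2 in CAST and 22 in F1r, a gap of 1.23-fold. Tmem119, a microglial membrane protein, was at 8.55, 7.85, 6.32 and 6.44 FPKM. The list median was 0.47 in the inbred pair and 0.12 in the hybrid pair. After that same rescaling the hybrid median was -0.13. The microglial median over both pairs was then 0.06, still above the value of all genes given above. Astrocyte markers gave 0 called genes, with 5 of 14 apart toward B6 and F1i by any gap and list medians of 0.08 and 0.07. Fgfr3, a growth factor receptor of astrocytes, was at 28.7, 34.6, 40.2 and 33.0 FPKM, so its inbred pair went the other way. Oligodendrocyte precursor markers gave 0 called genes, and 3 of 7 lay apart toward B6 and F1i.

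H2-D1, a class I antigen-presenting protein, was at 16.5 FPKM in B6, 10.2 in F1i, 2.0 in CAST and 7.23 in F1r. The hybrids lay between the strains and the gap was 1.36-fold. Of its words, 26.7% were found in other genes. Kcng4, a potassium channel subunit, was at 9.0, 6.25, 0.445 and 4.78 FPKM and was the called gene nearest the threshold on this side, with a gap of 1.254, while Akr1e1 lay just outside at 1.247.

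Several called genes had levels that were nearly equal within a side. Hes5, a transcriptional repressor induced by Notch in neural progenitors and astrocytes, (chromosome 4, 154960923 to 154962371), measured 10.5 FPKM in B6, 9.92 in F1i, 7.14 in CAST and 6.83 in F1r. Pcp2, a marker of cerebellar Purkinje cells, was at 92.6, 94.3, 64.6 and 69.8 FPKM. Their gaps were 1.34-fold and 1.32-fold, and each hybrid lay near the strain named first. Of the 13 cerebellar markers compared, Pcp2 was the 1 called gene, beside 0.328% of all genes called toward B6 and F1i. By any gap 6 of the 13 lay toward B6 and F1i and 2 toward CAST and F1r, beside 19.8% and 31.3% of all genes. The list medians were 0.00 in the inbred and 0.08 in the hybrid pair. Pcp2 overlaps Pet100 on the opposite strand, and the sources used here do not say whether counting used strand. The same holds for Eml5 with Zc3h14, Srrm2 with Elob and Cspp1 with Cops5, while Sfswap and Zbtb22 overlap a gene on their own strand.

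Fcor, a small cofactor of the transcription factor Foxo1, was at 16.9 FPKM in B6, 16.4 in F1i, 10.9 in CAST and 9.52 in F1r. Calb2, the calcium-binding protein calretinin of interneurons, was at 53.7, 52.9, 38.9 and 41.2 FPKM. Of 13 inhibitory neuron markers compared, 1 was called in each direction, Calb2 toward B6 and F1i and Reln toward CAST and F1r. By any gap 6 lay toward B6 and F1i and 4 toward CAST and F1r, beside 19.8% and 31.3% of all genes. The called shares of all genes were 0.328% and 0.779% in the same order. The list medians were 0.20 and -0.003. In 18 of the 29 genes called toward B6 and F1i, the 2 libraries of each side differed by less than the gap between the sides. The same held for 56 of the 69 genes called toward CAST and F1r. In 26 of the 29 and 59 of the 69 genes the inbred pair was further apart than the hybrid pair.

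Cytosolic ribosomal protein genes, which encode the protein part of the ribosome, gave 1 called gene among 43, toward B6 and F1i. That gene, Rpl37, was at 227 FPKM in B6, 174 in F1i, 84.3 in CAST and 138 in F1r. By any gap, 33 of the 43 lay apart toward B6 and F1i and 0 toward CAST and F1r, against 19.8% and 31.3% of all genes. The called shares of all genes were 0.328% and 0.779% in the same order. The list median was 0.25 in the inbred and 0.15 in the hybrid pair. The median over both pairs was 0.18, and -0.12 after rescaling to the same total over all transcripts, against -0.03 and -0.32 for all genes. Ribosomal protein genes are short and have many processed pseudogenes, and 42 of the 43 shared 5% or more of their words with other genes. The 63 genes of the nuclear-encoded respiratory chain gave 0 called genes and 39 apart by any gap toward B6 and F1i, with medians of 0.11 and 0.09. Their median over both pairs was 0.11, and -0.20 after the same shift of all genes.

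**Figure D2:**
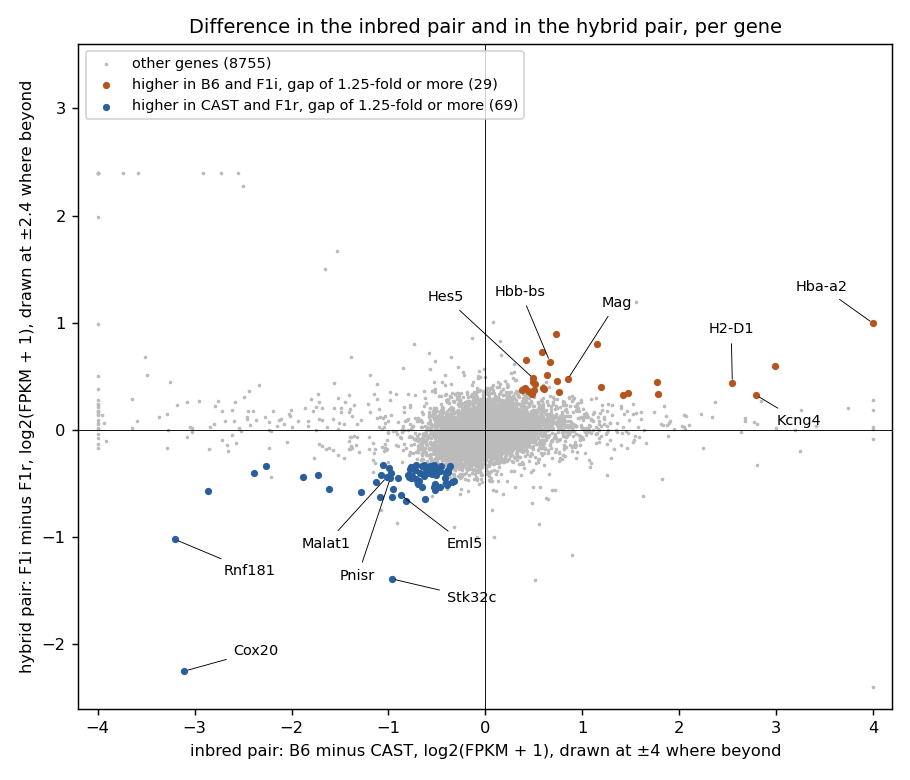
Difference on the log2(FPKM + 1) scale between B6 and CAST (x axis) and between F1i and F1r (y axis), 1 point per gene over 8853 genes; grey points were not called, orange were called higher in B6 and F1i (29) and blue higher in CAST and F1r (69). Called genes lie in the upper right and lower left by construction, and the grey points spread more along the x axis than along the y axis.

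The inbred and the hybrid pair share no library. Both pairs had the same sign in 5373 of 8853 genes (60.7%). The inbred difference had a standard deviation of 0.57 across genes and the hybrid difference one of 0.24. In the inbred pair 2257 genes were at least 25% apart, in the hybrid pair 395. Both pairs were that far apart in the same direction for 42 genes toward B6 and F1i and for 100 toward CAST and F1r, and in opposite directions for 74. Across genes, which are not independent replicates, Spearman's rho between the pairs was 0.26 and Pearson's r was -0.18.

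Toward CAST and F1r, the protein-coding gene with the widest gap was Cox20, an assembly factor of cytochrome c oxidase (chromosome 1, 178319130 to 178322693). It measured 0.496 FPKM in B6, 1.89 in F1i, 11.9 in CAST and 12.7 in F1r. F1r stood at the level of CAST and F1i near that of B6, with a gap of 4.46-fold. Of its words, 14.4% occur in other genes, and it overlaps Hnrnpu on the opposite strand. Rnf181, a ubiquitin ligase, was at 0.460, 4.79, 12.5 and 10.7 FPKM, with a gap of 2.03-fold. These were the 2 genes with a gap above 2-fold in this direction. Stk32c, a protein kinase, was at 2.86, 3.97, 6.53 and 12 FPKM, and F1r rather than CAST was highest.

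Some nuclear RNAs were called toward CAST and F1r. Malat1 (chromosome 19, 5795690 to 5802672), a long non-coding RNA of nuclear speckles, reached 924 FPKM in B6, 1008 in F1i, 1871 in CAST and 1368 in F1r. CAST stood highest, F1r second, and the gap was 1.36-fold. Snhg11, a host of small nucleolar RNAs, was at 49.5, 52.1, 93.8 and 71.4 FPKM, and Mir124a-1hg, the host of a neuronal microRNA, at 21.1, 24.2, 43.1 and 31.3. Of 10 nuclear-retained long non-coding RNAs compared, 3 were called toward CAST and F1r and 0 toward B6 and F1i. Across all genes these shares were 0.779% and 0.328%. The list medians were -0.31 in the inbred and -0.26 in the hybrid pair. Neat1, the scaffold of paraspeckles, was at 16.7, 13.9, 17.3 and 14.9 FPKM, so the sides overlapped. Other nuclear RNAs lay toward B6 and F1i: Terc, the RNA of telomerase, was called there at 6.99, 5.83, 4.16 and 3.80 FPKM, and Rn7sk, a small RNA that restrains transcription elongation, stood at 233564, 229605, 191220 and 185734 FPKM without reaching the threshold.

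Genes for SR proteins and SR-related factors, which bind pre-mRNA and act in splicing, were taken as a list after the called genes had been seen, so their count is not independent of it. Of 39 compared, 6 were called toward CAST and F1r, namely Pnisr, Nktr, Srrm2, Sfswap, Ccnl2 and Leng8, and 0 toward B6 and F1i. By any gap 30 lay toward CAST and F1r and 1 toward B6 and F1i, with medians of -0.37 and -0.17. Of all genes compared, 0.779% were called toward CAST and F1r. By any gap, 31.3% of all genes lay toward that side and 19.8% toward B6 and F1i. Pnisr, a serine- and arginine-rich splicing-related protein, was at 31.6 FPKM in B6, 33.6 in F1i, 63.4 in CAST and 46.3 in F1r. Srrm2, a scaffold protein of nuclear speckles, was at 29.8, 29.7, 52.4 and 40.2 FPKM. Srsf3, a core SR protein, was at 61.9, 52.1, 48.6 and 52.9 FPKM, and here the sides overlapped.

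Transcripts annotated as retaining an intron took a larger share in CAST and F1r. Within each of 3353 protein-coding genes with at least 0.5 FPKM of both kinds of transcript, the retained-intron share was the retained-intron FPKM over the sum of retained-intron and protein-coding FPKM. Its median was 9.69% in B6, 9.52% in F1i, 13.4% in CAST and 11.5% in F1r. The share lay apart toward CAST and F1r by any gap in 1545 genes (46.1%) and toward B6 and F1i in 196 (5.85%). The median difference was -2.62 points in the inbred pair and -1.23 points in the hybrid pair. A share within a gene does not depend on the scale of a library.

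Nktr, a cyclophilin-related protein with SR-like stretches, had a retained-intron share of 49.4% in B6, 50.3% in F1i, 60.2% in CAST and 55.7% in F1r. Eml5, a microtubule-associated protein, had shares of 36.2%, 39.8%, 47.3% and 49.0%. Srrm2 had shares of 25.9%, 17.5%, 36.5% and 28.2%, with CAST highest and F1i lowest. Of the 39 genes called toward CAST and F1r that had both kinds of transcript, 22 had a higher share in CAST and F1r and 0 in B6 and F1i. Of the 6 such genes called toward B6 and F1i, 4 also had a higher share in CAST and F1r and 0 in B6 and F1i. These counts stand beside the 46.1% over all 3353 genes. Ccnl2, a cyclin of nuclear speckles, was among the others, with shares of 80.2%, 84.2%, 84.4% and 80.0%.

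**Figure D3:**
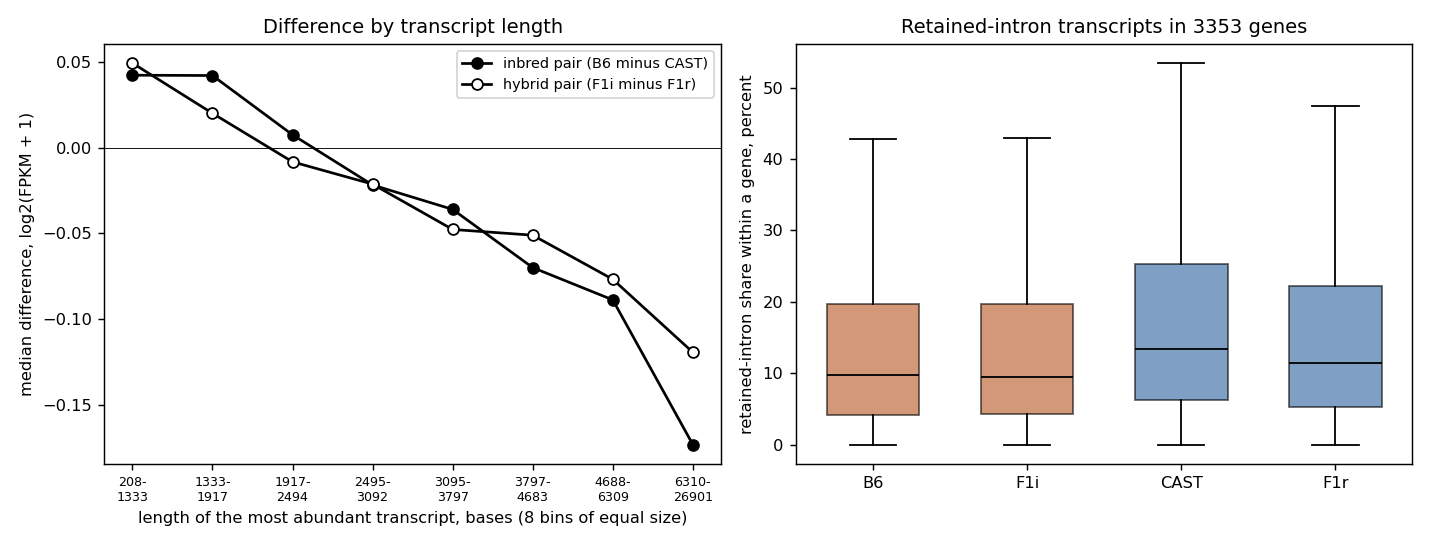
Left, median difference (log2 of FPKM + 1) of 7028 protein-coding genes sharing under 5% of their words, in 8 bins of transcript length in bases, with filled points for B6 minus CAST and open points for F1i minus F1r. Right, retained-intron share in percent within 3353 genes by library, with the box at the quartiles, the line at the median and whiskers to the last value within 1.5 box heights; medians are 9.69% in B6, 9.52% in F1i, 13.4% in CAST and 11.5% in F1r.

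The side difference moved with transcript length and with the share of G and C. Over 7028 protein-coding genes sharing under 5% of their words, in 8 bins by the length of the most abundant transcript, the median difference in the shortest bin (208 to 1333 bases) was 0.04 in the inbred and 0.05 in the hybrid pair. In the longest bin (6310 to 26901 bases) it was -0.17 and -0.12. That longest bin held 18 genes called toward CAST and F1r and 0 toward B6 and F1i, against 3 and 3 in the shortest. Among these protein-coding genes, the 45 called toward CAST and F1r had a median length of 5211 bases. The 11 called toward B6 and F1i had one of 2434 bases, and all 7028 one of 3094 bases. Their median G and C was 48.4% in the 45, 57.6% in the 11 and 50.7% in all. In the bin lowest in G and C, the medians were -0.09 and -0.07, with 12 genes called toward CAST and F1r and 0 toward B6 and F1i. In the highest bin they were -0.02 and -0.005, with 5 and 5 called. Length and G and C were not separated. After the values were centred within 20 bins of length, an alternative chosen after seeing the data, 27 genes were called toward B6 and F1i, 23 of them also called before, and 44 toward CAST and F1r, 36 of them also called before.

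Named genes of the long class included Reln, the secreted protein that guides neuronal layering, (chromosome 5, 21884454 to 22344702). Reln reached 15.8 FPKM in B6, 16.4 in F1i, 26.0 in CAST and 23.2 in F1r, a gap of 1.39-fold. Nav2, a neuron navigator protein, was at 4.96, 4.83, 7.57 and 7.58 FPKM, and Lyst, a regulator of lysosome trafficking, at 9.61, 10.03, 14.3 and 14.7. That both CAST and F1r exceeded both B6 and F1i in these 3 genes is required by the call. Phf14 was the called gene nearest the threshold on this side, with a gap of 1.251.

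Some called genes share sequence with others, so their fragments could be split between copies. Of the 29 toward B6 and F1i, 15 (51.7%) shared 5% or more of their words with other genes, against 18 of the 69 (26.1%) and 19.3% of all genes compared. Without such genes, 13 and 51 were called. Among those 13, Gpr37, an orphan receptor of oligodendrocytes, was at 15.6, 15.1, 10.9 and 11.8 FPKM, and Rps6kc1, a kinase-related protein, at 27.2, 20.9, 11.3 and 15.6. Among the 51, Spink8, a protease inhibitor found in hippocampal neurons, was at 4.51, 4.81, 10.6 and 6.79 FPKM. That the sides did not overlap in these 3 genes follows from the call.

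Neuronal lists differed in direction. They stand beside 19.8% of all genes toward B6 and F1i and 31.3% toward CAST and F1r by any gap. The called shares of all genes were 0.328% and 0.779% in the same order. Of 14 pan-neuronal markers 0 were called, and by any gap 5 lay toward B6 and F1i and 1 toward CAST and F1r. Of 14 excitatory neuron markers 1 was called, toward CAST and F1r. By any gap 11 of them lay toward CAST and F1r and 1 toward B6 and F1i, with medians of -0.14 and -0.19. Syndig1l, a striatal membrane protein, was at 6.71, 8.27, 10.9 and 10.6 FPKM. It was the 1 called gene of 14 striatal markers, toward CAST and F1r. By any gap 9 of these 14 lay toward CAST and F1r and 0 toward B6 and F1i, with medians of -0.09 and -0.29. Among 17 glutamate receptor genes 0 were called, and 11 lay toward CAST and F1r by any gap. Grin2b, a subunit of the NMDA receptor, was at 32.5, 32.0, 42.5 and 39.4 FPKM, a gap of 1.21-fold.

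**Figure D4:**
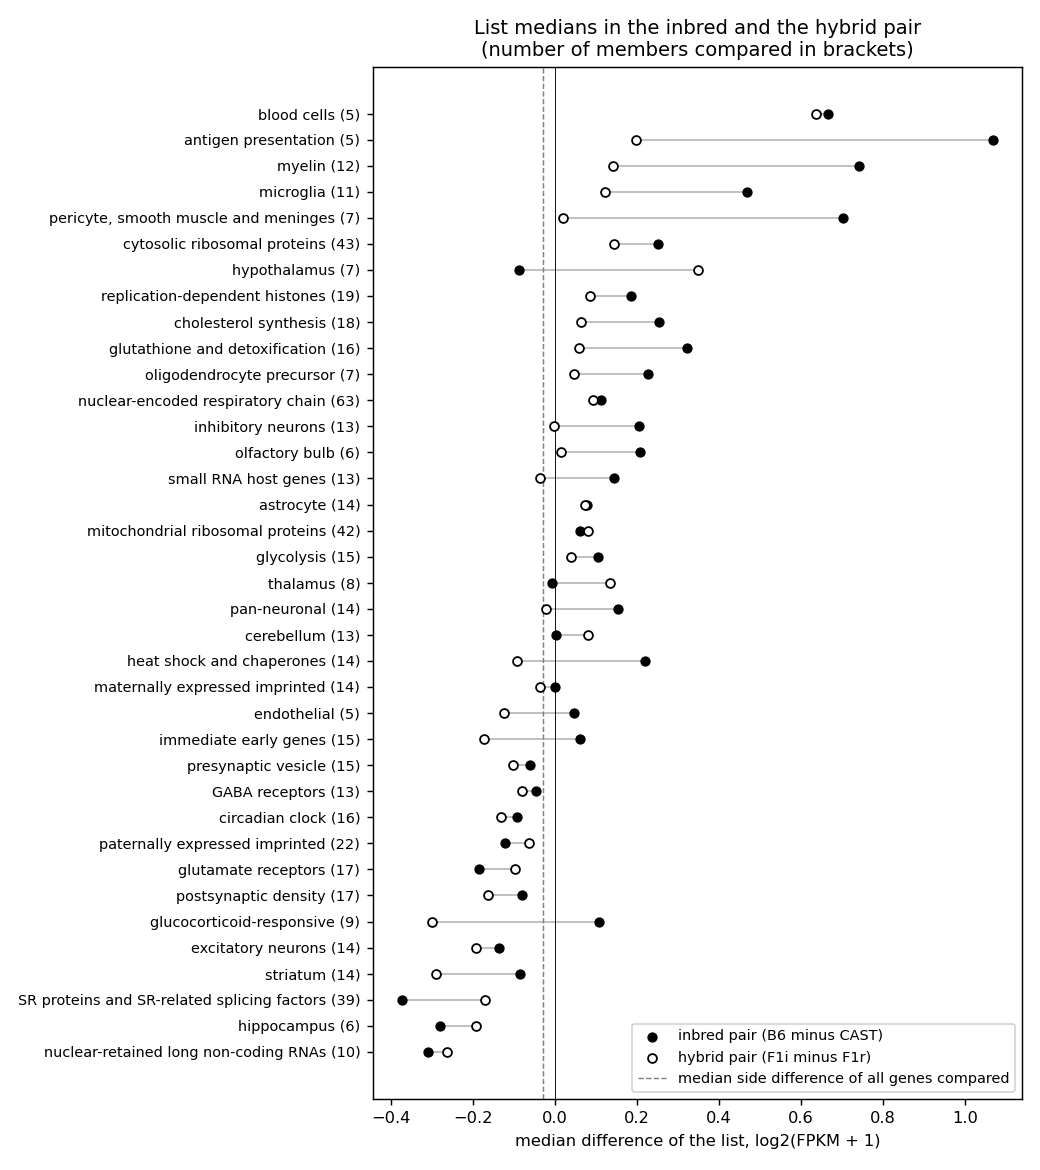
Median difference (log2 of FPKM + 1, x axis) of 37 gene lists with at least 5 members compared, with filled points for B6 minus CAST, open points for F1i minus F1r and the number of members in brackets; the dashed line is the median over all genes, -0.03. Both points of blood cells stand at 0.67 and 0.64, whereas the points of myelin stand apart at 0.74 and 0.14.

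Imprinted genes, whose expression follows the parent of origin, gave 0 called genes in either direction, both among the 14 maternally expressed and the 22 paternally expressed genes compared. With only 0.328% and 0.779% of all genes called, few calls would fall in lists of this size. Their medians were -0.00049 and -0.04 for the maternally expressed and -0.12 and -0.06 for the paternally expressed genes, in the inbred and the hybrid pair. Mirg, a long non-coding RNA of the maternally expressed list, was at 16.8 FPKM in B6, 12.7 in F1i, 25.1 in CAST and 19.9 in F1r. Its gap was 1.17-fold and its hybrid pair difference -0.61. Ddc, of the paternally expressed list, lay the other way at 7.38, 9.33, 5.85 and 5.75 FPKM. There the gap was 1.22-fold and the hybrid pair difference 0.61. Peg3, a paternally expressed zinc finger gene, was at 51.6 FPKM in B6, 58.9 in F1i, 68.4 in CAST and 64.4 in F1r, a gap of 1.09-fold. Ube3a, a ubiquitin ligase expressed from the maternal copy in neurons, was at 36.1, 33.4, 39.5 and 38.9 FPKM. These values are totals over both alleles and hold no measure of which allele was read.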

How the data were processed

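Per the labels' protocols, a lipid tissue kit was used on pooled hemispheres and a strand-specific kit for the libraries. The authors deposited FPKM per transcript, 1 table per library. Tools named in the submitters' processing notes are Cufflinks 2.2.1, Cuffdiff, HISAT2, Trimmomatic 0.36 and bcl2fastq 2.20, with mm9 as build. The files' positions are nevertheless GRCm38, since GENCODE M21 held 99.5% of the 128603 transcripts, 97.2% of them at identical start and end. Treatment of multiply matching fragments and use of a CAST genome: not given in the sources used here.

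FPKM of transcripts of at least 200 bases was summed per gene. The gap rule (25%, pseudocount 1), limma 3.58.1 in R 4.3.3 with Benjamini-Hochberg adjustment, and medians of gene lists were computed with Python 3.11.15. List medians are on the log2(FPKM + 1) scale, B6 minus CAST for the inbred and F1i minus F1r for the hybrid pair. Shared words are 31-base words of a gene's transcripts found in other genes' transcripts. The gap rule and limma were also run on simulated libraries with equal noise in every library and no difference between strains. Of 100 genes given a side change of 0.6 on the log2 scale, the gap rule called 90% and limma 99%. In the real data the inbred difference had a standard deviation of 0.57 and the hybrid difference one of 0.24, so these shares do not carry over.

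The members and lists were chosen with earlier results of these data known. Named were, per direction, the 15 called protein-coding genes of widest gap sharing under 5% of their words, 5 others, 4 long non-coding genes, and up to 4 members per list; names ending in Rik and of the form Gm plus digits were passed over, and some genes the rule names are left out of the text. Akr1e1, Phf14, Ccnl2, Leng8, and members set beside a list's count were picked with their values in view. The retained-intron share by gene and the SR list were also chosen after seeing the data. Alternatives covered the fold, pseudocount, filter, scaling, choice of transcripts, gene class, length centring and leaving out each library.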

Additional observations from a re-analysis of the deposited data

Results flagged for a closer look

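The glucocorticoid-responsive genes, which are induced by stress hormones, had medians of opposite sign in the pairs. Over 9 genes the median was 0.11 in the inbred pair and -0.30 in the hybrid pair, and this difference between pairs was not tested. Fkbp5, a chaperone partner of the glucocorticoid receptor, was at 8.34 FPKM in B6, 11.2 in F1i, 13.8 in CAST and 13.7 in F1r. Sgk1, a kinase, was at 74.3, 42.0, 47.0 and 66.0 FPKM, so the strains and the hybrids went opposite ways.

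Transcripts under 200 bases, which were left out of the gene sums, summed to 1623010 FPKM in B6, 1635580 in F1i, 1205690 in CAST and 1291970 in F1r. B6 and F1i lay above CAST and F1r with a gap of 1.26-fold.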

How the results depend on the processing

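Toward B6 and F1i, where 29 genes were called, the count was 1755 with any gap, 3 at 1.5-fold, 0 at 2-fold, 78 at a mean FPKM of 1 or more, 10 at 20 or more, 127 with no filter, 46 after median-ratio scaling, 3 and 7 after rescaling to the total of all transcripts and of the genes compared, 46 with the most abundant transcript only, 74 with transcripts under 200 bases and 13 for genes sharing under 5% of their words. Toward CAST and F1r, where 69 were called, the counts in the same order of settings were 2774, 6, 2, 216, 18 and 312, then 1891 and 409 after the rescalings, 38 with the most abundant transcript and 44 after length centring. Leaving out 1 library gave 48 to 485 and 122 to 539 genes, since a gap between fewer libraries is easier to reach. The counts were highest without F1r (485 and 539) and next without F1i (465 and 516). Those settings kept the inbred pair whole, and the reason for their higher counts was not tested. limma called 0 genes under all 9 alternatives run, with 193 to 1173 genes at an unadjusted p below 0.05 and smallest adjusted p from 0.146 to 0.944.

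The share of genes with the same sign in both pairs was 58.8% at a mean FPKM of 1 or more. Lists with both medians at 0.1 or above numbered 5 of 37, 8 after median-ratio scaling and 2 for genes sharing under 5% of their words. That last count covers fewer lists, since all 5 blood cell genes and 42 of 43 cytosolic ribosomal protein genes shared more. Retained-intron shares lay apart in 99 and 652 genes of 1421 at a minimum of 2 FPKM (toward B6 and F1i, and CAST and F1r), and in 427 to 580 and 1853 to 2284 genes when 1 library was left out. Of 45 called named genes, 10 lost their call after length centring, 2 after median-ratio scaling, 15 (28 kept it) and 12 (31 kept it) after rescaling to the total of all transcripts and of the genes compared, and 12 (20 kept it) with the most abundant transcript only. The cause was not tested. No pairing by replicate was possible because each group has 1 library and no replicate numbers to pair by. The only pairing was the term for hybrid or inbred in limma, which sets B6 against CAST and F1i against F1r. Depth is known only relative to B6.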

Other observations

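The hypothalamic markers had a median of 0.35 in the hybrid pair and -0.09 in the inbred pair over 7 genes. Oxt, the precursor of the hormone oxytocin, was at 24.5 FPKM in B6, 30.4 in F1i, 22 in CAST and 16.6 in F1r. Avp, the precursor of vasopressin, was at 20.6, 19.9, 22 and 14.9 FPKM, with F1r lowest.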
